A study of Mus musculus with 33 samples.

Results

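The genes described here are 86 of the 37583 gene IDs in the count files. They had higher read levels in SSEA1- cells of days 9 and 12 of mouse fibroblast reprogramming than in the starting fibroblasts and than in SSEA1+ cells of the same day. They were chosen on CPM, a gene's reads scaled by the total of reads counted in genes of that library. A member had a mean of at least 5 CPM in SSEA1- cells of both days. Each of these means was also at least 4 times the mean of mouse embryonic fibroblasts (MEFs) and at least 4 times the mean of same-day SSEA1+ cells, with 0.5 CPM added to the comparison group. Of the 93 genes that met these conditions, 7 were left out by the start of their symbol: Ccl2, Ccl7, Ccl8, Cxcl1, Itgbl1, Mmp13 and Mmp3. Of the 86 members, 83 have a symbol, 79 are protein coding in GENCODE M21, 2 are long intergenic non-coding RNAs and 2 are processed pseudogenes. The other 3 IDs are not in that annotation and have no name here.

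Poly-A RNA was sequenced from 33 libraries, 3 in each of 11 groups, all of the strain 129SV/Jae/C57BL6J. Reprogramming cells were grown in ES medium with dox and AA, dissociated with trypsin, stained and sorted on SSEA1 at d3, d6, d9, d12 and the iPS stage, which gave an SSEA1- and an SSEA1+ group at each stage. Unsorted MEFs in MEF medium form the eleventh group. Totals in genes ran from 8.93 to 41.69 M reads, and 0 reads of a gene in a library allow up to 0.072 to 0.336 CPM, depending on depth. In RNA from bulk samples such as these, a smaller number of cells of a type and less RNA per cell cannot be told apart.

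SSEA1 is a carbohydrate on the surface of early mouse embryonic and pluripotent cells. In fibroblast reprogramming it appears before the endogenous pluripotency network, and cells that stay negative mostly do not go on to form iPS colonies. Fibroblasts themselves make extracellular matrix, growth factor binding proteins and, when stimulated, complement and acute-phase proteins.

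The label "gained only by SSEA1 negative cells" was checked in every group by the same level and the same margin over MEFs. In SSEA1- cells 23 members met it at d3, 67 at d6, 86 at d9 and at d12, where the selection required it, and 55 at the iPS stage, against 1.46%, 2.03%, 2.34%, 2.74% and 2.8% of all gene IDs in those 5 groups. In SSEA1+ cells 8 members met it at d3, 12 at d6, 14 at d9, 3 at d12 and 3 at the iPS stage, against 1.76%, 2.49%, 3.28%, 4.56% and 5.47% of all gene IDs in those 5 groups. In all, 16 members were also up on MEFs in at least 1 SSEA1+ group, among them Ly6a, Cd34, Akr1c14, Aspa, Cacna1d, Cd55, Clu, Crym and Apod, and 70 were not. The word "only" is therefore not used below, and the genes are called members. The selection itself held MEFs and d9 and d12 SSEA1+ cells low, so these counts describe the members and do not test the label. Of the groups it did not use, neither d3, d6 nor iPS-stage SSEA1+ cells held the highest mean of any member. The highest mean was in d9 SSEA1- cells for 34 members, in d12 for 32, at the iPS stage for 12, at d6 for 6 and at d3 for 2.

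Members next to each other in the genome were found in 5 pairs with no protein-coding gene between them: Aox1 and Aox3, Prelp and Fmod, and Fmo1 and Fmo2 on chromosome 1, C1ra and C1s1 on chromosome 6, and Kng1 and Kng2 on chromosome 16. RefSeq promoter windows on GRCm38.p6, of 300 bases from 250 before to 50 after a gene's start, were at hand for 55 of the 86 members and for 27025 genes in all. The first listed window of each gene was searched on both strands for 5 motifs. More than 1 window was listed for 14 of the 55 members, and their other windows were not searched. The AP-1 motif TGANTCA, which is bound by Jun and Fos proteins, was in 9 of the 55 windows (16.4%), against 7.93% of all windows. The interferon-stimulated response element, a pair of GAAA runs with any 2 bases between them, was in 6 (10.9%), against 3.49%. The NF-kB motif, GGG and CC with any 5 bases between them, was in 30 (54.5%), against 50.4%, the TEAD motif GGAATG was in 10 (18.2%), against 14.6%, and the STAT motif TTCNNNGAA was in 4 (7.27%), against 8.47%. A match is a run of letters and not a measured binding site, and these shares carry no test. The windows of 2 neighbouring pairs are shown because their members lie side by side, and those of Il1rn and Sqor because they hold an AP-1 and an interferon-response motif. Capitals mark any of the 5 motifs on either strand. In C1ra the STAT motif overlaps 1 of the 3 TEAD motifs, and Prelp and Fmod hold none of the 5. The windows lie at chr1:134037004-134037303 on the plus strand (Fmod), chr1:133921352-133921651 on the minus strand (Prelp), chr6:124512371-124512670 on the plus strand (C1ra), chr6:124542310-124542609 on the minus strand (C1s1), chr2:24336610-24336909 on the plus strand (Il1rn) and chr2:122771463-122771762 on the plus strand (Sqor).
Fmod: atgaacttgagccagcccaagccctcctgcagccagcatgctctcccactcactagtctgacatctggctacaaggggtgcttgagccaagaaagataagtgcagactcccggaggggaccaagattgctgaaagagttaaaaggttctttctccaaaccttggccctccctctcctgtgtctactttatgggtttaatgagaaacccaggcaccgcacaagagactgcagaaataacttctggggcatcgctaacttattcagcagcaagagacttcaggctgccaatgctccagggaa
Prelp: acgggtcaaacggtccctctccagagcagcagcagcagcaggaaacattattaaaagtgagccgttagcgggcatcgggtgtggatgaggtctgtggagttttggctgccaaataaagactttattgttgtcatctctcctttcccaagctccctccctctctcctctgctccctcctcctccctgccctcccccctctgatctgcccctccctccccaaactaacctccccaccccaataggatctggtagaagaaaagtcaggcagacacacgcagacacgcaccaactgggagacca
C1ra: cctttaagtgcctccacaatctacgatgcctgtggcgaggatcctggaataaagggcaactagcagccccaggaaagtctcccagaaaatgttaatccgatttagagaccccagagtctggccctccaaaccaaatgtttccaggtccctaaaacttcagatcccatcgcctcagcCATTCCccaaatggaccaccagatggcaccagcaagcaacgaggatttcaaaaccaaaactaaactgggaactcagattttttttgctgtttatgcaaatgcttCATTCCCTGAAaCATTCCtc
C1s1: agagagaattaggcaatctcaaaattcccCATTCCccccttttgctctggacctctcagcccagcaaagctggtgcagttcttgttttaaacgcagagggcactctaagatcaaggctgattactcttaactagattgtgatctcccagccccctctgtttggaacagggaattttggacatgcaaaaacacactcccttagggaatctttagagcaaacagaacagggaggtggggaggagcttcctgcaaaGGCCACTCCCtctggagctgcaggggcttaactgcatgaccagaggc
Il1rn: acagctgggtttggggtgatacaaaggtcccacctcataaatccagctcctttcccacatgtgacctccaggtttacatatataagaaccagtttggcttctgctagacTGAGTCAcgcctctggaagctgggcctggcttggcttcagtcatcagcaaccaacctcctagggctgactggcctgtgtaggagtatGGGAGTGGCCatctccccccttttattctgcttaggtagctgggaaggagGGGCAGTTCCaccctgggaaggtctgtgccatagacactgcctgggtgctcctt
Sqor: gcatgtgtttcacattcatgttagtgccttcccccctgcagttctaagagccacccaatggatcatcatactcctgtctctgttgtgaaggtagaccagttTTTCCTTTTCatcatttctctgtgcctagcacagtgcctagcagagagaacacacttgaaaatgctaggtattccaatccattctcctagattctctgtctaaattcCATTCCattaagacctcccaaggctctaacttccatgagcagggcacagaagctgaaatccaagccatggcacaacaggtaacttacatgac

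Levels in the groups that chose the members are given here as a description, without a test. The members together took 1.24 to 1.91% of reads in d9 SSEA1- libraries and 1.34 to 1.86% in d12 SSEA1- libraries. Their share was 0.107 to 0.251% in d9 SSEA1+ and 0.0629 to 0.122% in d12 SSEA1+ libraries, and 0.0918 to 0.152% in MEFs. Between the 2 days the SSEA1- level moved little: the ratio of the d12 to the d9 mean had a median of 1.0 over the members, with a range of 0.59 to 2.25. The smallest margins inside the selection were those of Fgf18, whose lowest ratio to a threshold was 1.008, Adh7 (1.016), Fmo5 (1.033), Aox3 (1.035) and Glipr1 (1.041). Just outside were Ism1 (0.992), Rdh10 (0.984), Xdh (0.984), Nalcn (0.98) and Galnt15 (0.975). The widest margins among named genes were those of Clec3b (5.504), Dmp1 (5.493), Hp (4.174), Sostdc1 (3.466) and Penk (3.458).

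**Figure D1:**
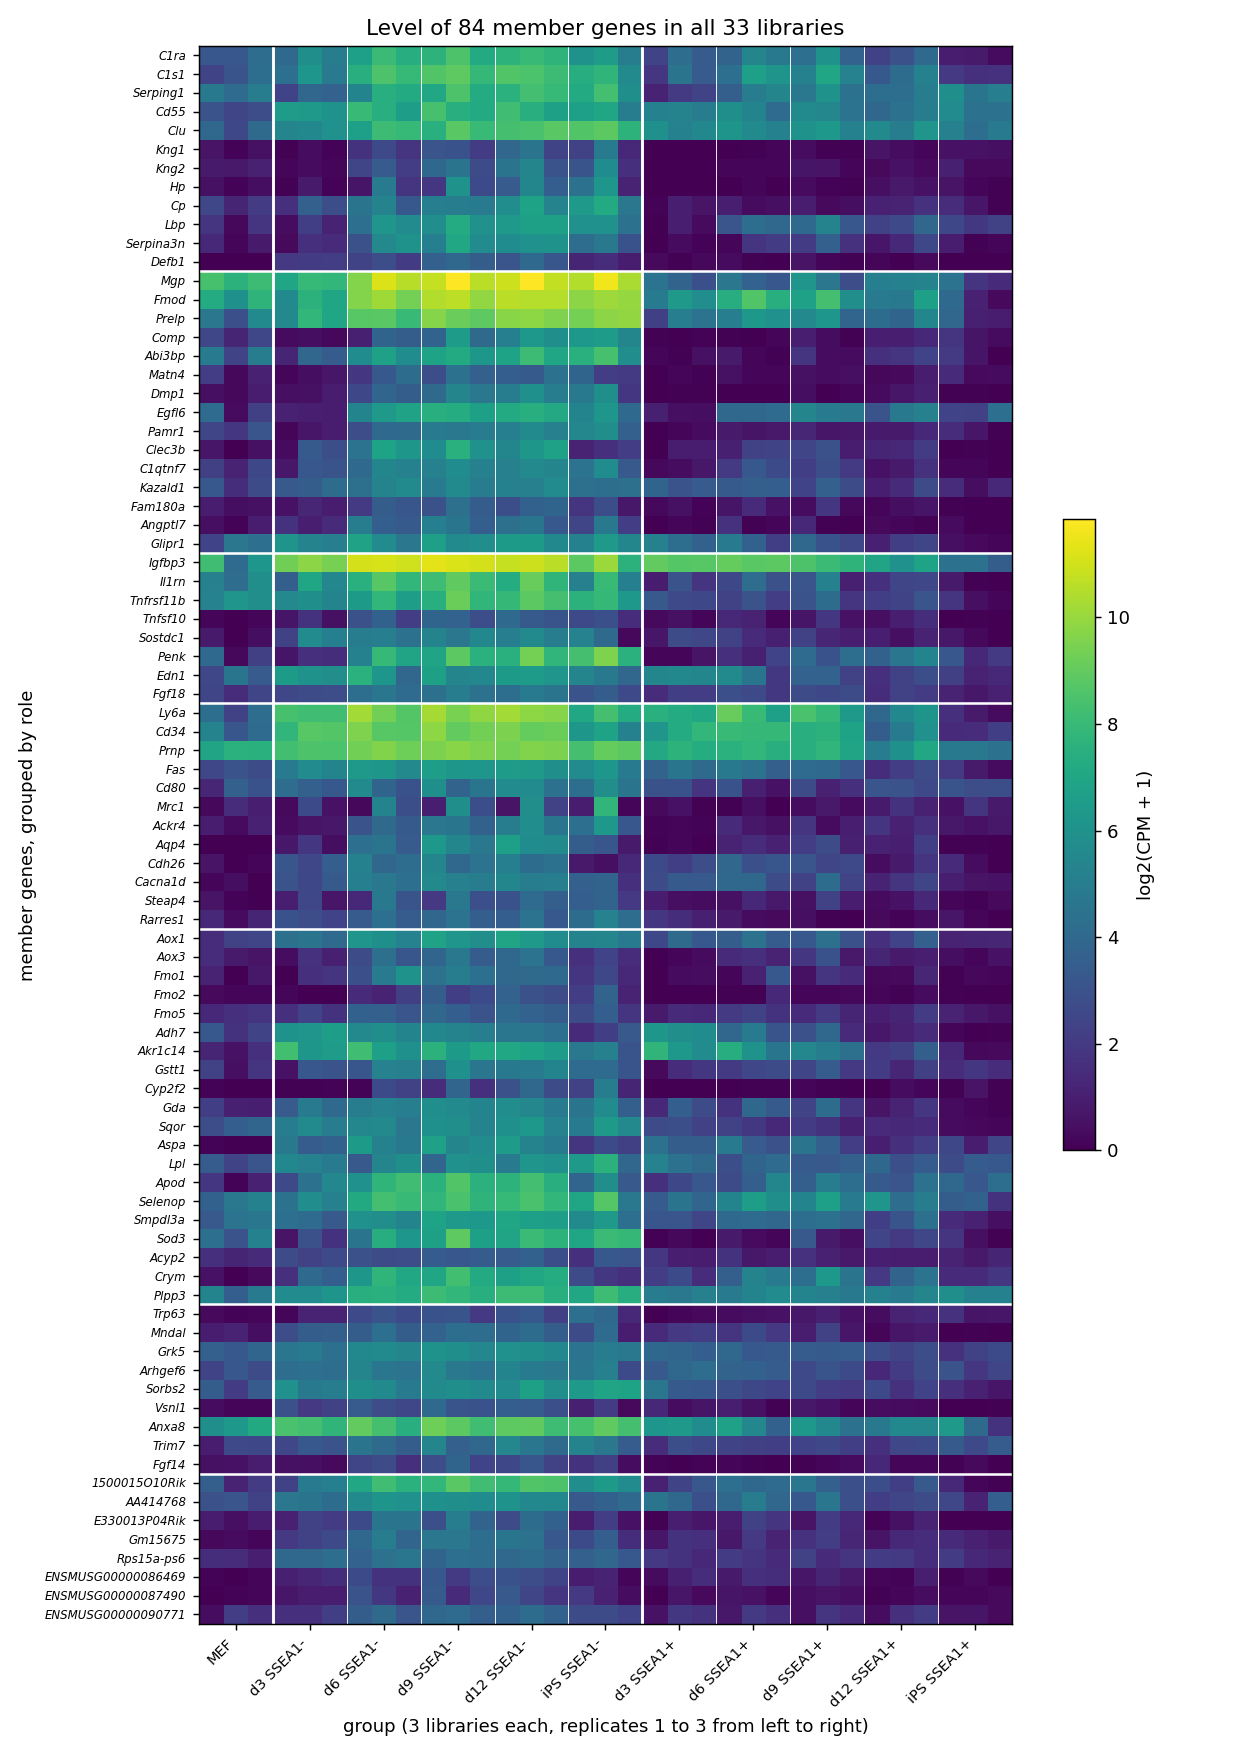
Level of 84 of the 86 member genes, as log2(CPM + 1), in all 33 libraries, with MEFs at the left, then SSEA1- libraries from d3 to the iPS stage, then SSEA1+ libraries in the same order. Rows are grouped from top to bottom as complement and acute-phase proteins, matrix, secreted signals, cell surface, metabolism, intracellular proteins, and non-coding or unnamed genes; d9 and d12 SSEA1- columns, which the selection used, are brightest, and 67 members had already passed the margin over MEFs in d6 SSEA1- cells.

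Whether these genes also differ where the selection did not look was tested between the 6 groups of d3, d6 and the iPS stage (18 libraries), with edgeR's quasi-likelihood test over 17326 genes in a fit of all 33 libraries. Calls required a change of 2-fold or more and a Benjamini-Hochberg adjusted p below 0.05. All 86 members passed the filter on low counts. At d6, 71 members were higher in SSEA1- than in SSEA1+ cells and 0 were lower, against 10.1% and 6.31% of all genes tested. In 74 members every d6 SSEA1- library was above every d6 SSEA1+ library, against 21% of all genes, and in 0 every one was below, against 20.1%. The median log2 fold change was 2.67 over the members and 0.01 over all genes. The d6 and d9 SSEA1- libraries of the same replicate number deviated from their group means together over the members (r = 0.86, 0.86 and 0.5), and so did those of the iPS stage and d12 (r = 0.37, 0.46 and 0.3). Neither the d6 nor the iPS-stage values are wholly independent of those that chose the members.

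At the iPS stage, 80 members were higher in SSEA1- than in SSEA1+ cells and 0 were lower, against 21.3% and 16% of all genes. Every SSEA1- library was above every SSEA1+ library in 74 members, against 25.6% of all genes, and the median log2 fold change was 5.21, or 5.03 with the 2 members that had no SSEA1+ read set to a lower bound of 3 reads over the group, against -0.06 over all genes. Among the 6 members not called were AA414768, Apod, Aspa, Cdh26 and Crym. At d3, 18 members were higher and 0 lower, against 3.91% and 2.76% of all genes, and every SSEA1- library was above every SSEA1+ library in 50, against 16.5%. With the replicate number as a block, 31 were higher at d3. The median log2 fold change at d3 was 1.79 (1.72 with 5 members at their bound), against 0.03 over all genes. The d3 count fell to 9 without d3 SSEA1- replicate 2, against 1.99% of all genes. It was also 9 without d3 SSEA1+ replicate 3, against 1.58%. Without any library of replicate number 2, the counts were 2 at d3, 34 at d6 and 60 at the iPS stage. All genes were then called in 0.488%, 3.78% and 14.2%.

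**Figure D2:**
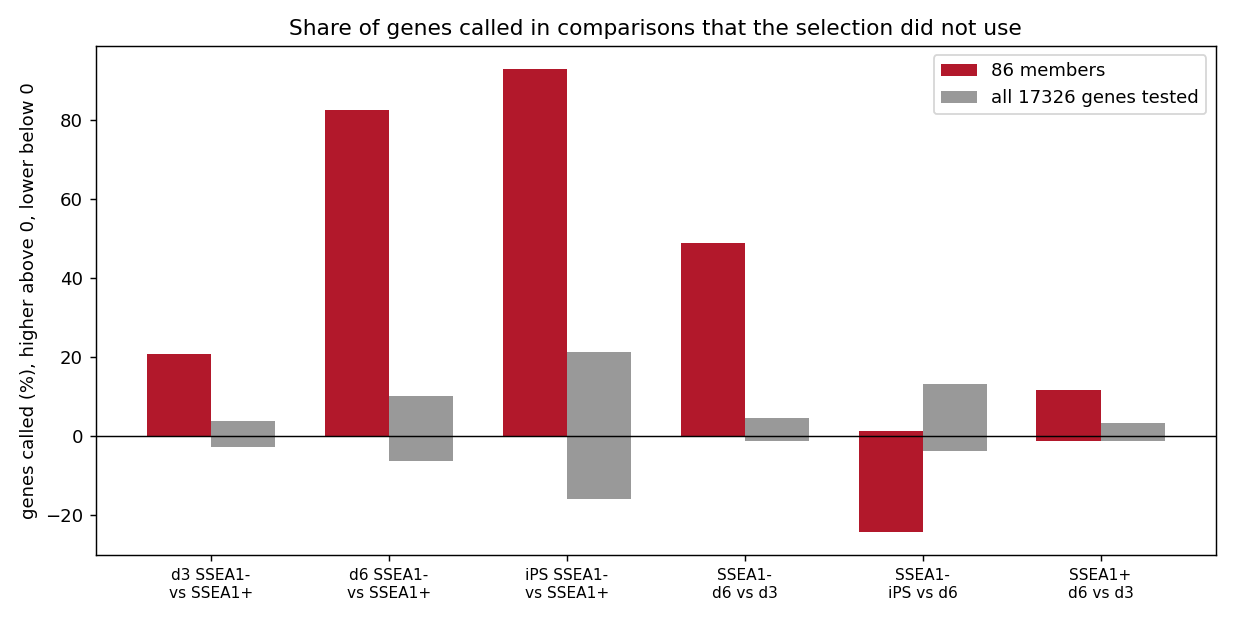
Percent of genes called higher (above 0) or lower (below 0) in 6 comparisons that the selection did not use, for the 86 members (red) and for all 17326 genes tested (grey). Members were called higher 71 times at d6 and 80 times at the iPS stage between the sorted fractions, and in SSEA1- cells 21 were lower at the iPS stage than at d6.

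Complement, kinin and acute-phase proteins made up 13 members. Higher in SSEA1- cells were 12 at d6, 3 at d3 and 13 at the iPS stage, against 10.1%, 3.91% and 21.3% of all genes. C1ra, a protease of the first complement component, had 103, 267 and 163 CPM in d6 SSEA1- libraries, against 12.7, 41 and 26.2 CPM in d6 SSEA1+ libraries. The groups did not overlap, and the log2 fold change was 2.69 ± 0.62 (approximate standard error, adjusted p = 0.0024). At the iPS stage C1ra had 65.9, 88.9 and 30.8 CPM in SSEA1- cells and 0.901, 0.838 and 0.276 CPM in SSEA1+ cells, a log2 fold change of 6.46 ± 0.79 (adjusted p = 3.8e-07). Its neighbour C1s1, the partner protease, had 169, 366 and 247 CPM at d6 in SSEA1- cells, against 18.8, 103 and 69.4 CPM in SSEA1+ cells. Clu, an extracellular chaperone that also limits complement lysis, had 102, 278 and 241 CPM in d6 SSEA1- cells and 69.2, 48.6 and 36.1 CPM in d6 SSEA1+ cells (log2 fold change 1.9 ± 0.45, adjusted p = 0.0033).

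The complement regulators Serping1, which inhibits C1 proteases, and Cd55, which speeds the decay of convertases on the cell surface, also had SSEA1+ reads. Serping1 had 39.5, 178 and 152 CPM in d6 SSEA1- libraries, against 11.1, 30.4 and 40.5 CPM in d6 SSEA1+ libraries, and the lowest SSEA1- library lay just under the highest SSEA1+ library. Cd55 had 248, 170 and 97.3 CPM in d6 SSEA1- libraries and 58.2, 39.2 and 16.8 CPM in d6 SSEA1+ libraries, without overlap. Cp, the copper oxidase ceruloplasmin, had 22.4, 38.6 and 8.47 CPM in d6 SSEA1- libraries, against 0.967, 0.27 and 0.388 CPM in d6 SSEA1+ libraries. Serpina3n, a protease inhibitor, had 6.64, 45.9 and 64.3 CPM in d6 SSEA1- libraries, against 0.132, 2.59 and 3.1 CPM in d6 SSEA1+ libraries. Lbp, which binds bacterial lipopolysaccharide, was the member of the group not called at d6, with 19.3, 72 and 51.9 CPM in SSEA1- cells and 7.65, 18.6 and 14.8 CPM in SSEA1+ cells. Defb1, a small antimicrobial peptide, had no MEF read and 2.85, 3.11 and 3.41 CPM in SSEA1- cells as early as d3, against 0.244, 0.063 and 0.189 CPM in d3 SSEA1+ cells (log2 fold change 4.03 ± 0.77, adjusted p = 0.0022, and 0.07 with all libraries of replicate number 2 left out). The precursors of the kinins are Kng1 and Kng2. In d6 SSEA1- libraries Kng1 had 2.28, 5.07 and 2.45 CPM and Kng2 had 4.48, 9.47 and 3.47 CPM. In d6 SSEA1+ libraries they had at most 0.111 and 0.132 CPM, and Kng1 had 3 reads in all. These 2 genes are near copies of each other, as C1ra and C1s1 are of C1rb and C1s2, so their reads may be split between copies.

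Matrix and other extracellular proteins were 15 members. Higher in SSEA1- cells were 14 at d6, 7 at d3 and 15 at the iPS stage, against 10.1%, 3.91% and 21.3% of all genes. Mgp, the matrix Gla protein that keeps soft tissue free of mineral, had 798, 2355 and 1539 CPM in d6 SSEA1- libraries, against 25.1, 12.4 and 8.37 CPM in d6 SSEA1+ libraries. Each SSEA1- library was far above each SSEA1+ library (log2 fold change 6.54 ± 0.94, adjusted p = 3.4e-05), and the difference was 7.75 ± 1.0 at the iPS stage (adjusted p = 7.4e-07). In MEFs Mgp stood at 334, 195 and 278 CPM, above all 15 SSEA1+ libraries. Fmod and Prelp, neighbouring small leucine-rich proteoglycans that bind collagen, were also read in SSEA1+ cells of d6. Fmod had 811, 1129 and 664 CPM in d6 SSEA1- libraries, against 163, 390 and 179 CPM in d6 SSEA1+ libraries, and missed the threshold (log2 fold change 1.77 ± 0.79, adjusted p = 0.095, and 0.018 with only the groups compared in the fit). In iPS-stage libraries it had 893, 1088 and 990 CPM in SSEA1- cells and 15.7, 1.14 and 0.221 CPM in SSEA1+ cells (log2 fold change 7.41 ± 1.02, adjusted p = 1.9e-06). Prelp showed the same order at the iPS stage, with 656, 873 and 977 CPM in SSEA1- cells, against 14.3, 1.08 and 0.883 CPM in SSEA1+ cells (log2 fold change 7.25 ± 1.02, adjusted p = 2.7e-06).

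Several matrix members were close to 0 in SSEA1+ cells. Comp, a cartilage and tendon matrix protein, had 1.06, 13.1 and 10.4 CPM in d6 SSEA1- libraries, against 0.044, 0 and 0.111 CPM in d6 SSEA1+ libraries, which hold 3 reads in all. It was called higher (adjusted p = 0.00021), and no fold is given from so few reads. Abi3bp, a matrix protein that binds Abi3, had 52.4, 108 and 54 CPM in d6 SSEA1- libraries, against 0.835, 0.162 and 0.055 CPM in d6 SSEA1+ libraries (log2 fold change 7.43 ± 1.18, adjusted p = 8.8e-05). Dmp1, an acidic phosphoprotein of bone and dentin, had 4.91, 13.7 and 10.2 CPM in d6 SSEA1- libraries and no read in any d6 SSEA1+ library, and was at least 189.8-fold higher against a floor of 3 reads over that group (adjusted p = 2.4e-05). Egfl6, a matrix protein with EGF-like repeats, had 39.4, 80.3 and 111 CPM in d6 SSEA1- libraries, against 14.7, 14.7 and 16.9 CPM in d6 SSEA1+ libraries. Clec3b, the plasminogen-binding protein tetranectin, had the widest margin in the selection among named genes, with clone-named genes left out. It had 21.4, 116 and 75.9 CPM in d6 SSEA1- libraries, against 1.05, 3.84 and 4.43 CPM in d6 SSEA1+ libraries. The other matrix members are Matn4, Pamr1, C1qtnf7, Kazald1, Fam180a, Angptl7 and Glipr1.

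**Figure D3:**
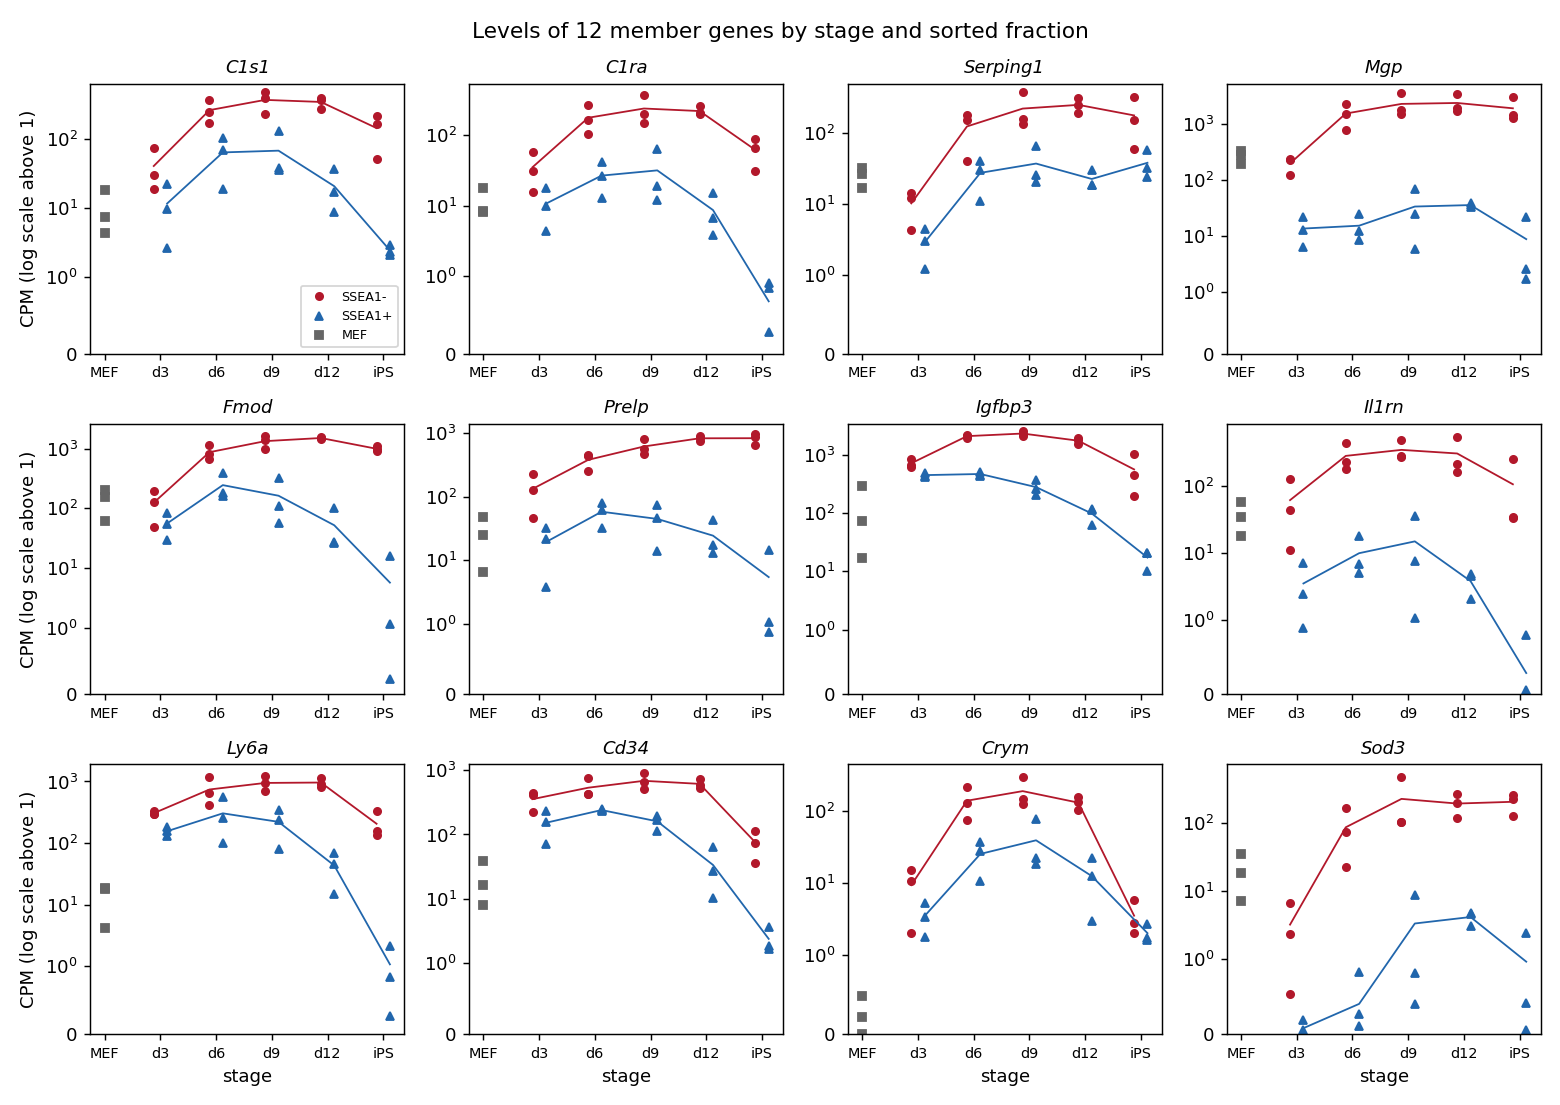
CPM of 12 members in each library at each stage, on an axis that is logarithmic above 1 CPM, with SSEA1- as red circles, SSEA1+ as blue triangles, MEFs as grey squares, and lines through the group means. In all 12 genes the SSEA1- mean is higher at d9 than at d3, and in Ly6a, Cd34 and Igfbp3 the SSEA1+ means of d3 and d6 are above the MEF mean and that of the iPS stage is below it.

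Secreted signals and proteins that bind or block them were 8 members. Higher in SSEA1- cells were 7 at d6, 2 at d3 and 8 at the iPS stage, against 10.1%, 3.91% and 21.3% of all genes. Igfbp3, the main carrier of insulin-like growth factors, had 2160, 2212 and 2009 CPM in d6 SSEA1- libraries, against 520, 445 and 459 CPM in d6 SSEA1+ libraries (log2 fold change 2.07 ± 0.58, adjusted p = 0.01). All 3 d6 SSEA1+ libraries were in turn above the MEF libraries, which had 293, 16.8 and 73.1 CPM. At the iPS stage SSEA1- libraries had 461, 1050 and 197 CPM, against 20.9, 20.9 and 10.2 CPM in SSEA1+ libraries (log2 fold change 4.98 ± 0.67, adjusted p = 1.4e-06). Il1rn, the antagonist of the interleukin-1 receptor, had 181, 439 and 225 CPM in d6 SSEA1- libraries, against 5.01, 17.9 and 6.76 CPM in d6 SSEA1+ libraries (log2 fold change 4.78 ± 1.07, adjusted p = 0.002). Tnfrsf11b, osteoprotegerin, a soluble decoy receptor for RANKL, had 86, 226 and 95.8 CPM in d6 SSEA1- libraries, against 4.04, 7.08 and 3.44 CPM in d6 SSEA1+ libraries (log2 fold change 4.73 ± 0.71, adjusted p = 5.3e-05). Penk, the precursor of the enkephalin peptides, had 36.3, 246 and 120 CPM in d6 SSEA1- libraries, against 1.98, 1.03 and 4.21 CPM in d6 SSEA1+ libraries (log2 fold change 5.73 ± 1.03, adjusted p = 0.00028). Il1rn, Tnfrsf11b and Penk did not overlap between the fractions at d6. Edn1, the vasoconstrictor endothelin, was the member of this group not called at d6, with 188, 74.4 and 13.8 CPM in SSEA1- cells and 48.4, 23.3 and 2.83 CPM in SSEA1+ cells. The rest are Tnfsf10, the death ligand TRAIL, Sostdc1, which binds BMPs, and Fgf18, a fibroblast growth factor.

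Surface proteins, receptors and channels were 13 members. Higher in SSEA1- cells were 9 at d6, 1 at d3 and 11 at the iPS stage, against 10.1%, 3.91% and 21.3% of all genes. The stem and progenitor markers Ly6a (Sca-1) and Cd34 stood high in both fractions early on. Ly6a had 1169, 641 and 412 CPM in d6 SSEA1- libraries, against 551, 258 and 101 CPM in d6 SSEA1+ libraries, and 18.4, 4.11 and 17.8 CPM in MEFs. The sorted groups overlapped, and the difference missed the threshold (log2 fold change 1.15 ± 0.63, adjusted p = 0.18, and 0.037 without d6 SSEA1+ replicate 1, where it was 2.05). In iPS-stage libraries Ly6a had 134, 326 and 157 CPM in SSEA1- cells and 2.08, 0.838 and 0.276 CPM in SSEA1+ cells (log2 fold change 7.55 ± 0.86, adjusted p = 1.2e-07). Cd34 had 746, 431 and 425 CPM in d6 SSEA1- libraries, against 250, 232 and 238 CPM in d6 SSEA1+ libraries, without overlap and short of the threshold (log2 fold change 1.07 ± 0.51, adjusted p = 0.12, and 0.032 with only the groups compared in the fit). Its difference at the iPS stage was 4.91 ± 0.62 (adjusted p = 5.8e-07). Prnp, the prion protein, had 633, 767 and 607 CPM in d6 SSEA1- libraries, against 187, 231 and 176 CPM in d6 SSEA1+ libraries (log2 fold change 1.67 ± 0.31, adjusted p = 0.00035). The death receptor Fas had 83.1, 74.9 and 46.3 CPM in d6 SSEA1- libraries, against 27, 20.2 and 11.1 CPM in d6 SSEA1+ libraries. Aqp4, a water channel, had no MEF read, and had 19.3, 22.5 and 9.48 CPM in d6 SSEA1- libraries, against 1.27, 1.84 and 1.11 CPM in d6 SSEA1+ libraries. The others include the calcium channel subunit Cacna1d, the scavenging chemokine receptor Ackr4, the metalloreductase Steap4, the T cell costimulator Cd80, Rarres1, Cdh26 and Mrc1.

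Enzymes and carriers of oxidation, detoxification and lipid metabolism were the largest group with 20 members. Higher in SSEA1- cells were 14 at d6, 3 at d3 and 17 at the iPS stage, against 10.1%, 3.91% and 21.3% of all genes. Sod3, the extracellular superoxide dismutase, had 22.4, 166 and 74 CPM in d6 SSEA1- libraries, against 0.835, 0.27 and 0.111 CPM in d6 SSEA1+ libraries (log2 fold change 7.54 ± 1.27, adjusted p = 0.00015). Sqor, a mitochondrial enzyme that oxidises hydrogen sulphide, had 27.1, 81.9 and 46.7 CPM in iPS-stage SSEA1- libraries, against 0.282, 0.18 and 0.11 CPM in iPS-stage SSEA1+ libraries (log2 fold change 8.03 ± 0.62, adjusted p = 3.7e-10). Plpp3, a phosphatase of lysophosphatidic acid and related lipids, had 175, 184 and 154 CPM in d6 SSEA1- libraries, against 29.6, 39 and 50.7 CPM in d6 SSEA1+ libraries (log2 fold change 2.04 ± 0.35, adjusted p = 0.00016). Its difference was of similar size at the iPS stage (2.14 ± 0.35, adjusted p = 1.8e-05). Selenop, the carrier of selenium in plasma, had 144, 314 and 250 CPM in d6 SSEA1- libraries, against 40.1, 95.3 and 58.8 CPM in d6 SSEA1+ libraries. It missed the threshold at d6 (log2 fold change 1.8 ± 0.69, adjusted p = 0.053, and 0.02 with the replicate block), and was higher at the iPS stage by 4.49 ± 0.78 (adjusted p = 4.3e-05).

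The flavin monooxygenases Fmo1, Fmo2 and Fmo5, the aldehyde oxidases Aox1 and Aox3, the alcohol dehydrogenase Adh7 and the aldo-keto reductase Akr1c14 are all enzymes that oxidise or reduce small molecules. Fmo1, Fmo5, Aox1 and Aox3 were called at d6, and all 7 at the iPS stage. Akr1c14 and Adh7 were well above MEFs in both fractions at d3, and lower in SSEA1+ cells of d12. Akr1c14 had 303, 75.5 and 92.9 CPM in d3 SSEA1- libraries, against 216, 78 and 51.9 CPM in d3 SSEA1+ libraries and 1.35, 0.487 and 2.02 CPM in MEFs. By d12 it had 137, 115 and 91.5 CPM in SSEA1- cells and 2.99, 3.77 and 10.9 CPM in SSEA1+ cells. Aspa, which cleaves N-acetylaspartate, had 0.971, 2.12 and 3.41 CPM in d12 SSEA1+ libraries, against 27.1, 9.46 and 6.71 CPM in d6 SSEA1+ libraries. The selection held d12 SSEA1+ means below d12 SSEA1- means, so the d12 values of Akr1c14, Adh7 and Aspa are description only. Crym binds thyroid hormone. Crym had 75.7, 217 and 130 CPM in d6 SSEA1- libraries, against 10.8, 37.9 and 27.8 CPM in d6 SSEA1+ libraries, and no more than 0.478 CPM in MEFs. The rest of the group are the lipid carrier Apod, the lipoprotein lipase Lpl, the guanine deaminase Gda, the glutathione transferase Gstt1, the cytochrome P450 enzyme Cyp2f2, Acyp2 and Smpdl3a.

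**Figure D4:**
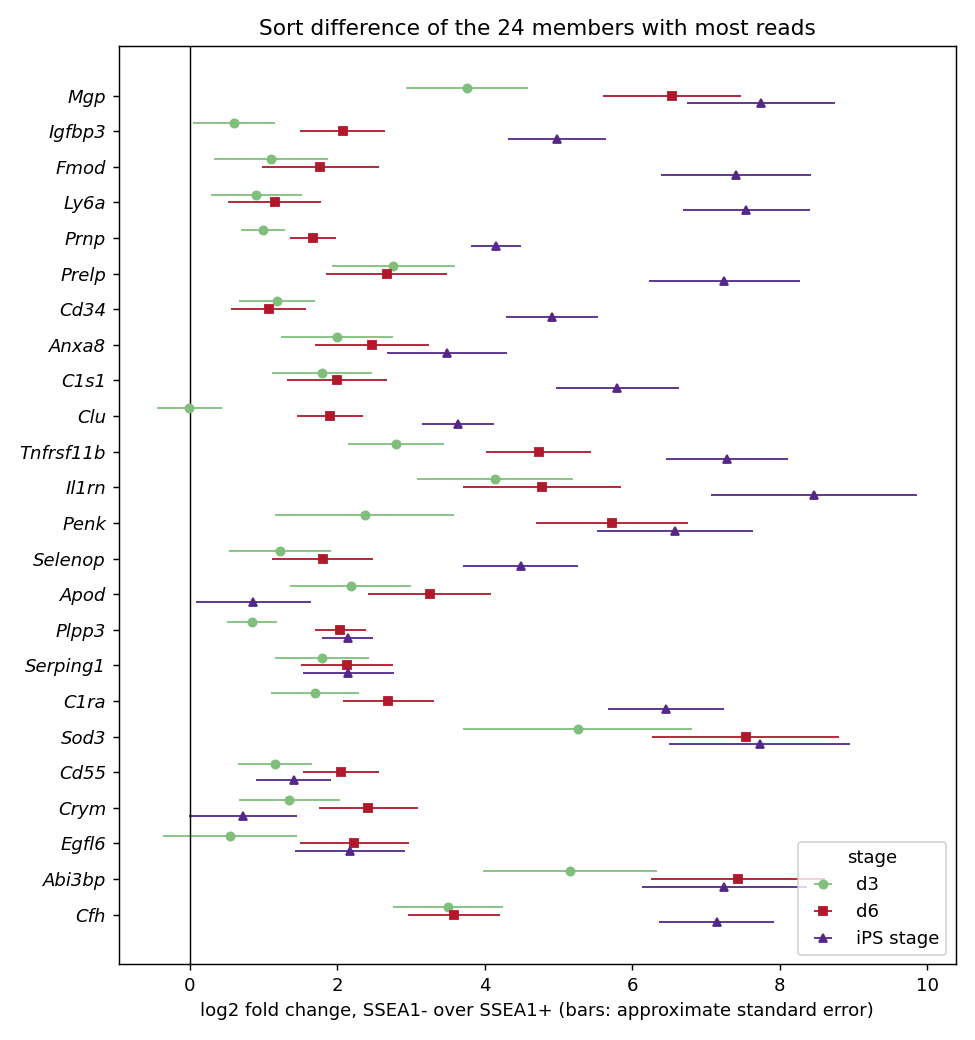
Log2 fold change of SSEA1- over SSEA1+ cells at d3 (green circles), d6 (red squares) and the iPS stage (purple triangles) for the 24 members with most reads in d9 and d12 SSEA1- libraries, with approximate standard errors. At the iPS stage Mgp, Fmod, Ly6a and Il1rn lie above 7, while Apod and Crym lie at 0.86 and 0.72.

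Transcription and intracellular signalling proteins were 9 members. Higher in SSEA1- cells were 8 at d6, 1 at d3 and 9 at the iPS stage, against 10.1%, 3.91% and 21.3% of all genes. Trp63, a transcription factor of basal epithelial cells, had 5.18, 7.25 and 5.25 CPM in d6 SSEA1- libraries, against 0.264, 0.378 and 0.499 CPM in d6 SSEA1+ libraries and at most 0.217 CPM in MEFs. The groups did not overlap. Anxa8, a membrane-binding annexin, had 510, 326 and 178 CPM in d6 SSEA1- libraries, against 109, 43 and 11.9 CPM in d6 SSEA1+ libraries. Mndal, an interferon-inducible nuclear protein of the family of Mnda in human, had 10.1, 18.9 and 10.1 CPM in d6 SSEA1- libraries, against 2.46, 5.3 and 2.94 CPM in d6 SSEA1+ libraries. Its iPS-stage SSEA1- libraries had 5.82, 16.9 and 0.842 CPM, against 1 read in all in SSEA1+ libraries (adjusted p = 3.3e-06). The others are the receptor kinase Grk5, Arhgef6, the adaptor Sorbs2, the calcium sensor Vsnl1, Trim7 and Fgf14. Non-coding, pseudogene, clone-named or unnamed members were 8, of which 7 were higher at d6, 1 at d3 and 7 at the iPS stage, beside the same shares of all genes. Reads of the processed pseudogenes Rps15a-ps6 and AA414768 may come from their parent genes.

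Within SSEA1- cells, 42 members were higher at d6 than at d3 and 0 were lower, against 4.65% and 1.24% of all genes, with a median log2 fold change of 1.99 over the members and 0.03 over all genes. Penk had 36.3, 246 and 120 CPM at d6, against 0.571, 2.06 and 1.97 CPM at d3 (log2 fold change 6.3 ± 1.06, adjusted p = 0.0015). Egfl6 had 39.4, 80.3 and 111 CPM at d6, against 1.14, 1.01 and 0.863 CPM at d3 (log2 fold change 6.1 ± 0.91, adjusted p = 0.00063). Complement and acute-phase proteins (10 of 13) and matrix proteins (11 of 15) were called more often than surface proteins (3 of 13), a difference between roles that was not tested. The count was 13 without d3 SSEA1- replicate 1, 25 without d3 SSEA1- replicate 3 and 19 without d6 SSEA1- replicate 2. In those settings 0.885%, 2.5% and 1.87% of all genes were higher. With only the groups compared in the fit 21 members were higher, against 1.48% of all genes. With all libraries of replicate number 2 left out 5 were, against 0.178%.

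In SSEA1+ cells 10 members were higher at d6 than at d3 and 1 was lower, against 3.21% and 1.25% of all genes. With the replicate block 12 were higher and 2 lower, against 4.36% and 1.73%. Among the 10 were Aox3, Aqp4, C1qtnf7, C1s1, Crym, Egfl6, Fmo2, Lbp and Serping1, and the lower one was Adh7. The call of Fmo2 rests on 1, 1 and 29 reads in d6 SSEA1+ libraries, against 0 reads in each d3 SSEA1+ library. Lbp had 7.65, 18.6 and 14.8 CPM at d6, against 0.03, 1.01 and 0.283 CPM at d3 (log2 fold change 5.04 ± 0.93, adjusted p = 0.0025). The count of higher members was 3 without d3 SSEA1+ replicate 1, and 6 without d3 SSEA1+ replicate 3, d6 SSEA1+ replicate 2 or d6 SSEA1+ replicate 3, each left out alone. In those settings, in that order, 0.784%, 2.15%, 2.28% and 1.39% of all genes were higher. Without d3 SSEA1+ replicate 1, d6 SSEA1+ replicate 1 or d6 SSEA1+ replicate 3, Adh7 was no longer called. Whether the sort difference itself changed between d3 and d6 was tested as an interaction. By edgeR it was called for 0 members, with 13 at an unadjusted p under 0.05, against 0.0115% of all genes called higher. By DESeq2 it was called for 0 members, against 0.0373% of all genes.

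From d6 to the iPS stage, SSEA1- cells had 1 member higher and 21 lower, against 13.2% and 3.69% of all genes, with a median log2 fold change of -0.69 over the members and 0.03 over all genes. Crym fell most among the members, with 5.78, 2.74 and 2.01 CPM at the iPS stage, against 75.7, 217 and 130 CPM at d6 (log2 fold change -5.44 ± 0.78, adjusted p = 2.4e-05). Cdh26, a cadherin, had 0.754, 0.408 and 1.61 CPM at the iPS stage, against 35.9, 14.1 and 17.7 CPM at d6 (-4.61 ± 0.86, adjusted p = 0.00039). Aspa (-3.75 ± 0.77, adjusted p = 0.00094) and Adh7 (-3.32 ± 0.62, adjusted p = 0.00038) fell as well. Ly6a, Cd34, Igfbp3, Akr1c14, Apod and Clec3b are among the other members that were lower. The member that was higher is Comp, with 79.3, 93.6 and 42.8 CPM at the iPS stage, against 1.06, 13.1 and 10.4 CPM at d6 (log2 fold change 3.04 ± 0.81, adjusted p = 0.0077).

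One iPS-stage SSEA1- library stands apart. Replicate 3 had 433 CPM of the pluripotency gene Nanog, against 26.2 and 64.7 CPM in replicates 1 and 2, and its median member level was 3.39 on the log2(CPM + 1) scale, against 4.46 and 5.32. Without this library 8 members were higher and 10 lower at the iPS stage than at d6, against 12.5% and 4.32% of all genes. Without replicate 1 the counts were 2 and 10, against 11.8% and 2.82%. With only the groups compared in the fit 9 were lower, against 1.56%. The part of replicate 3 in these counts was not tested further. From d6 to the iPS stage in SSEA1- cells, 13.2% of all genes were higher and 3.69% lower. In that comparison 18 of 20 pluripotency genes were higher and 0 lower, as were 26 and 1 of 34 epithelial adhesion genes, 11 and 0 of 13 visceral endoderm and hepatocyte genes, 8 and 0 of 10 skeletal muscle genes, 8 and 1 of 15 endothelial genes, 7 and 0 of 11 trophoblast genes, 6 and 0 of 15 neuronal genes and 2 and 0 of 17 fibroblast genes. Their part in the members' values was not tested. The sort difference was larger at the iPS stage than at d6 in 23 members and smaller in 0, against 9.26% and 3.25% of all genes, by a test of the interaction. With all libraries of replicate number 2 left out, 2 of the 86 members were called higher, a share no greater than the 2.56% of all genes called in that setting.

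**Figure D5:**
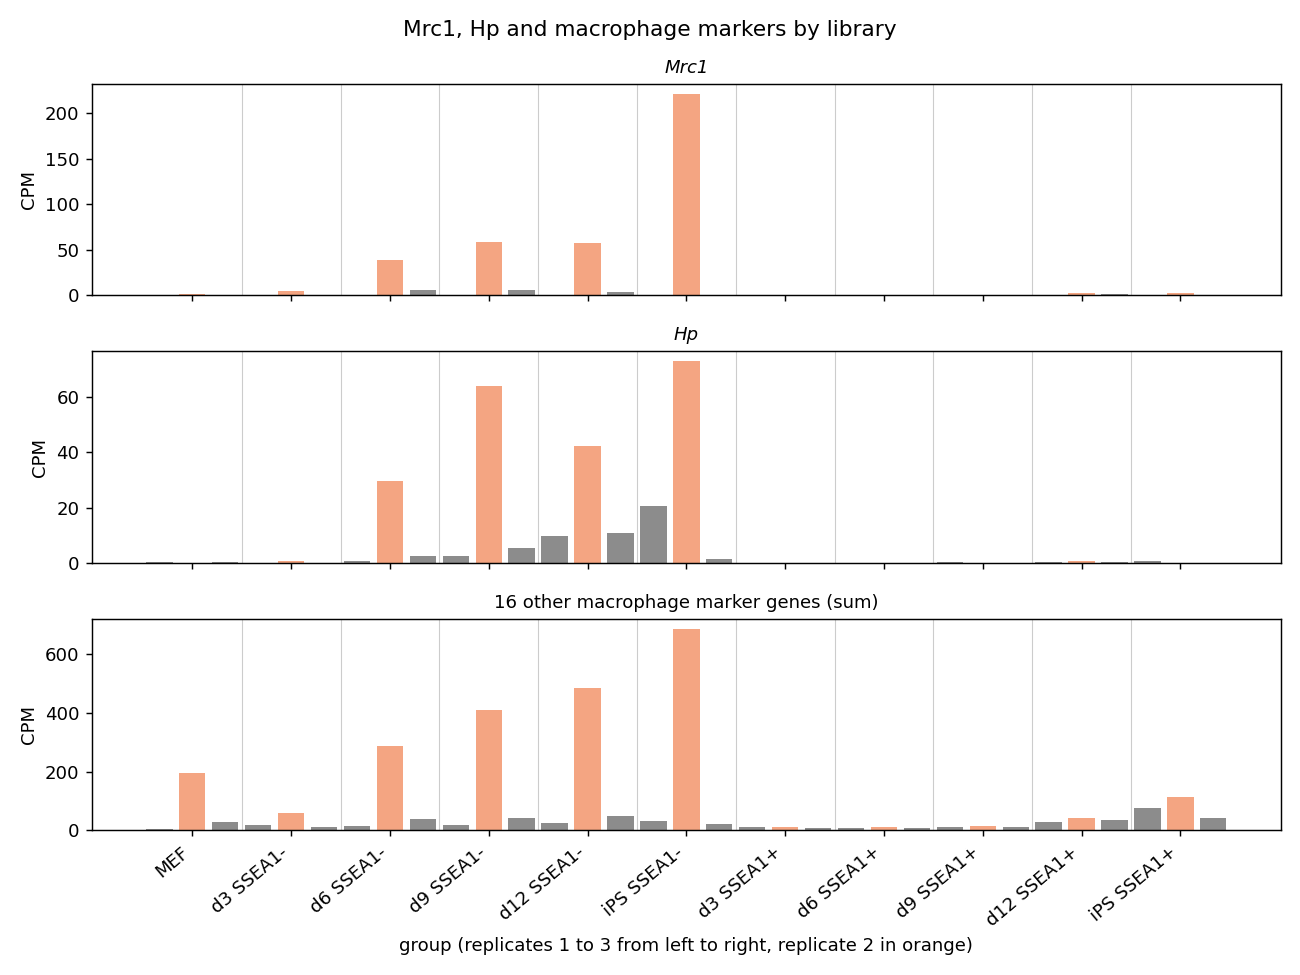
CPM of Mrc1 (top), Hp (middle) and the sum of 16 other macrophage marker genes (bottom) in all 33 libraries, with replicate 2 of each group in orange. In SSEA1- groups from d6 on, replicate 2 is the highest library in all 3 panels.

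The members were not even over replicates. The highest library was replicate 2 for 44 of the 86 members in d9 SSEA1- cells, for 51 in d12 and for 71 at the iPS stage, and replicate 1 for 40, 27 and 10. In 45 members the same replicate number was highest at d6, d9 and d12, which was replicate 2 in 29 and replicate 1 in 16. Further, 1 library held more than 60% of a member's CPM in 12 members at d6, 12 at d9, 3 at d12 and 25 at the iPS stage. Mrc1, the mannose receptor of macrophages, had 1.02, 58.3 and 6.1 CPM in d9 SSEA1- libraries, 0.558, 57.5 and 3.84 CPM in d12 SSEA1- libraries and 0.88, 221 and 0.11 CPM in iPS-stage SSEA1- libraries. It was not selected without replicate 2. Hp, the haemoglobin-binding protein haptoglobin, had 2.68, 63.8 and 5.23 CPM at d9 and 9.67, 42.3 and 10.7 CPM at d12. Its difference at d6, against 2 SSEA1+ reads in all, was called (adjusted p = 0.0042), and was not without d6 SSEA1- replicate 2 (adjusted p = 0.055). Macrophage markers moved with these libraries. Of the 18 marker genes in the files 4 were higher in SSEA1- cells at d6 and 0 lower, against 10.1% and 6.31% of all genes. Their summed level was 293.6 to 585.3 CPM in d6 SSEA1- and 397.7 to 731.9 CPM in d6 SSEA1+ libraries. To this Laptm5 gave 568.55, 221.26 and 247.17 CPM in SSEA1- and 723.37, 463.96 and 389.11 CPM in SSEA1+ libraries. The 16 markers other than Laptm5 and Mrc1 summed to 16.53, 288.53 and 40.38 CPM in d6 SSEA1- libraries, and to 20.03, 411.38 and 43.73 CPM at d9. At d12 the SSEA1- sums were 24.4, 483.24 and 50.84 CPM, and at the iPS stage 33.81, 686.51 and 20.75 CPM. SSEA1+ libraries had 8.48 to 10.65 CPM at d6 and 10.33 to 16.22 CPM at d9. They had 27.42, 42.13 and 34.18 CPM at d12, all above SSEA1- replicate 1 of that day. At the iPS stage they had 75.99, 114.07 and 41.47 CPM, all above SSEA1- replicates 1 and 3. MEFs had 5.26, 195.85 and 30.47 CPM. Lyz2 led these markers, with 149 CPM in d9 SSEA1- replicate 2, and Ptprc and C1qa were at 0 in d6 SSEA1- replicate 1. Their part in the values of Mrc1, Hp and other members highest in replicate 2 was not tested. Without replicate 2 in the 5 groups of the selection, 94 genes met the conditions, and 70 of the 86 members were among them. Mrc1, Hp, Comp, Sod3, Steap4, Trp63, Abi3bp and Anxa8 are among the 16 that were not.

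Genes of the same pathways that are not members were counted in the same tests, from lists drawn up with earlier results of these data known. The lists of small leucine-rich proteoglycans, complement and kinin genes, and oxidising enzymes were added to the planned lists. They hold 2, 8 and 11 members. At d6, 10.1% of all genes tested were higher in SSEA1- cells and 6.31% lower, and the list counts are read beside these shares. Of 13 small leucine-rich proteoglycans tested, 10 were higher in SSEA1- cells at d6 and 0 lower, with 9 of the 11 that are not members among them. Their sum ran from 2505.1 to 4991.8 CPM in d6 SSEA1- libraries, against 265.2 to 495 CPM in d6 SSEA1+ libraries and 6434 to 9996.7 CPM in MEFs. Of 31 complement and kinin genes 13 were higher and 0 lower, with 5 of the 23 that are not members. Of 20 oxidising enzymes 13 were higher and 0 lower, with 5 of the 9 that are not members. Of 22 acute-phase and innate defence genes 13 were higher and 0 lower, with 7 of the 15 that are not members. Of 39 listed interferon-stimulated genes 20 were higher and 0 lower, and of 17 genes of antigen processing and MHC class I 6 were higher and 0 lower. The interferon list holds no member, and leaves out the interferon-inducible member Mndal. Retinoid handling genes were higher in 6 of 14 and EGF family genes in 1 of 11, with 0 and 1 lower.

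Epithelial and pluripotency genes moved the other way. Of 34 epithelial adhesion genes 0 were higher and 17 lower in SSEA1- cells at d6, and of 20 pluripotency genes 0 were higher and 6 lower. Of 24 basal keratinocyte genes tested 3 were higher, Trp63 among them, and 5 lower, and of 17 cornified envelope genes 1 was higher and 1 lower. Among markers of other cell types, 13 of 17 fibroblast genes were higher in SSEA1- cells at d6 and 17 of 17 at the iPS stage, and 0 were lower. All genes were higher in 10.1% and 21.3%. The fibroblast sum was 8251.7 to 13296.3 CPM in d6 SSEA1- libraries, against 2451.6 to 2535.5 CPM in d6 SSEA1+ libraries and 65471.3 to 75108.9 CPM in MEFs. This sum was below that of MEFs in all sorted groups, and Col1a1 gave 26963, 28748 and 30838 CPM of it in MEFs. Not every marker was below MEFs. Twist1 had 41.4, 98.5 and 76.2 CPM in d6 SSEA1- libraries, against 57.2, 34.4 and 53.5 CPM in MEFs. The members, which are above MEFs by selection, and the fibroblast markers were thus both higher in SSEA1- than in SSEA1+ cells at d6. What this marker difference has to do with the members was not tested. Other marker lists are read beside the 10.1% of all genes higher and 6.31% lower at d6. They had 4 higher and 2 lower of 9 mesothelial genes, 3 and 2 of 11 Schwann cell and melanocyte genes, 2 and 2 of 15 endothelial genes, 1 and 2 of 15 neuronal genes, 1 and 0 of 10 skeletal muscle genes, 1 and 1 of 7 glandular and airway genes, 0 and 1 of 13 visceral endoderm and hepatocyte genes, and 0 and 0 of 11 trophoblast and of 5 lymphocyte, mast cell and red cell genes.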

How the data were processed

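Poly-A RNA of 33 libraries was analysed from raw read counts per gene that the authors deposited. Per the submitters' processing notes, HTSeq 0.6.0, STAR 2.3.0 and Picard 1.100 were used with mm9, and no roles are stated. Settings and the annotation release are not given in the sources used here. If counting ignored strand, reads of overlapping antisense genes cannot be told apart. Lines that name no gene were left out of totals. They held 4.42 to 15.51% (no feature), 2.41 to 3.15% (ambiguous) and 14.95 to 27.24% (not unique) beside the counted reads, and totals in genes were 8.93 to 41.69 M (median 23.15 M). Limits from 3 reads cover counting error only.

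The members and the lists of genes were chosen with earlier results of these data known. CPM used no other scaling. Tests used edgeR 4.0.16 (R 4.3.3) with TMM scaling, filterByExpr, robust quasi-likelihood fits of 33 libraries with 22 residual degrees of freedom, and Benjamini-Hochberg adjustment over 17326 genes. A call needed an adjusted p under 0.05 and at least 2-fold. Standard errors are the log2 fold change over the square root of F and are approximate. The genes given with a test are the 24 members with most reads in d9 and d12 SSEA1- libraries, up to 6 called members with the largest change in each direction of each comparison (without overlap between the groups, where 2 groups were compared), the 5 with the smallest and the 5 with the largest margin, and members of the pathway lists, leaving out predicted and clone-named genes. Other members are given by levels alone. The values of 2 members are not reported here, and counts over the members include them. The script was tested on simulated data. Alternatives were DESeq2 1.42.0, other filters and scalings, fewer libraries in the fit, a replicate block and leaving out libraries. Whether replicates came from separate cultures or mice is not in the labels, and the spread that p-values measure may be technical. Replicate numbers were checked by the correlation of deviations from group means. It was 0.476, 0.3 and 0.555 for the d6 fractions, 0.468, 0.351 and 0.425 for the d3 fractions, 0.645, 0.557 and 0.482 between d6 and d3 SSEA1- cells, and 0.564, 0.388 and 0.408 between d6 and d3 SSEA1+ cells, and these were taken as paired from the data. In the comparisons with the iPS stage it was 0.003 to 0.296, and those were not taken as paired. The main fit had no term for replicate number. Counts and p-values therefore ignore the pairing, except where the replicate block is named. Gene names came from GENCODE M21, and no coordinates of the files' build were used.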

Additional observations from a re-analysis of the deposited data

Results flagged for a closer look

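The difference between SSEA1- and SSEA1+ cells was larger at the iPS stage than at d6 in 23 members, by edgeR's quasi-likelihood test of the interaction over all genes. The values below, given for 22 of the 23, are the log2 fold change between the fractions at the iPS stage minus that at d6. Surface and secreted members in this set were Ly6a (6.41), Glipr1 (5.79), Fmod (5.64), C1qtnf7 (5.61), Tnfsf10 (4.64), Prelp (4.58), Cd34 (3.84), Fas (3.45), Igfbp3 (2.91), Cacna1d (2.48) and Prnp (2.48). Complement members were C1s1 (3.8) and C1ra (3.77). Enzymes were Fmo2 (5.82), Gda (5.55), Adh7 (4.88), Akr1c14 (4.35), Sqor (4.34), Smpdl3a (3.79) and Aox1 (2.72). The intracellular proteins were Mndal (6.43) and Sorbs2 (3.35). Fmo2, Tnfsf10, Adh7 and Mndal rest on 1 to 3 reads in iPS-stage SSEA1+ cells, so the size of their differences depends on the prior count of the fit. Other settings were tried for 6 of the 23 (Mndal, Ly6a, Fmo2, Glipr1, Fmod and C1qtnf7), and of these Ly6a alone stayed past the threshold in every one.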

How the results depend on the processing

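Of 88 log2 fold changes of named members, 48 kept their direction and call in all settings tried. Values moved more often to weaker than to stronger: 52 against 6 in other settings, and 69 against 2 without 1 library. The second adjusted p-values given at d6 for Fmod, Ly6a, Cd34 and Selenop are from settings in which they were under 0.05. Most called members are given without such a second value. Leaving out 1 library gave 49 to 68 members higher at d6 between the fractions, 9 to 22 at d3 and 72 to 80 at the iPS stage. The shares of all genes then ran from 7.15 to 9.94%, 1.58 to 4.15% and 18.4 to 23.1%. With 1 library left out, 13 to 43 were higher in SSEA1- d6 against d3 (all genes 0.885 to 5.9%). In SSEA1- iPS against d6, 1 to 8 were higher and 10 to 24 lower (all genes 10.2 to 12.7% and 2.82 to 4.32%). For SSEA1+ d6 against d3, 3 to 12 were higher and 0 to 1 lower (all genes 0.784 to 3.47% and 0.364 to 1.58%). The change of the sort difference from d6 to the iPS stage had 19 to 31 higher and 0 to 1 lower (all genes 7.73 to 10.9% and 1.72 to 7.42%). The 1 lower was without iPS SSEA1- replicate 2. DESeq2 gave 33 higher at d3, 3 higher in SSEA1- iPS against d6, and 16 higher and 3 lower in SSEA1+ d6 against d3. Of all gene IDs it called 2.46%, 6.65%, 2.22% and 0.732%. With the replicate block the counts were 31 higher at d3, 2 higher in SSEA1- iPS against d6 and 2 lower in SSEA1+ d6 against d3. All genes were so called in 5.04%, 14.8% and 1.73%. With the 18 libraries outside the selection alone, 26 were higher in SSEA1- d6 against d3 (all genes 2.36%). With the compared groups alone 21 were (all genes 1.48%), and 9 were lower in SSEA1- iPS against d6 (all genes 1.56%). In both of these fits and without a filter on low counts, 0 were lower in SSEA1+ d6 against d3. With all libraries of replicate number 2 left out, a choice made after seeing the data, the counts were 34 at d6, 2 at d3, 5 in SSEA1- d6 against d3, 11 lower in SSEA1- iPS against d6, 2 higher and 0 lower in SSEA1+ d6 against d3, and 2 for the change of the sort difference. In that order, all genes were called in 3.78%, 0.488%, 0.178%, 1.87%, 0.281%, 0.0517% and 2.56%. That setting also has fewer samples, and the cause was not tested. Apod, with 0.86 at the iPS stage, ran from -0.4 (without iPS SSEA1- replicate 2) to 1.31 with 1 library left out, and was at -0.66 with all libraries of replicate number 2 left out. A margin of 3 times selected 158 genes and of 6 times 38. TMM-scaled CPM selected 64, all of them members, and leaving out replicates 1, 2 or 3 selected 90, 94 and 94, with 69, 70 and 75 members among them, and 50 members were selected in all 3 cases. At these depths a gene with no read in a library may have up to 0.072 to 0.336 CPM.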
